A study of Homo sapiens with 3 samples.

Results

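The genes described are 9 human transporters of water-soluble vitamins, chosen by name: SLC19A2 and SLC19A3 for thiamine, SLC19A1 and SLC46A1 for folate, SLC5A6 for biotin and pantothenate, SLC52A1 and SLC52A2 for riboflavin, and SLC23A1 and SLC23A2 for vitamin C. Every probe set of the array that carried only such a symbol was taken, which gave 26 probe sets for 8 of the 9 genes, out of 18132 genes with a probe set. No probe set named SLC52A1 alone, so it has no value here. The list was drawn up with the response of SLC19A2 in these data already known. All values below come from the contrast that made that gene of interest, so they are a description and no test was made on them.

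RNA was measured in Caco-2, an established human colorectal cancer line whose cells can take on features of absorptive enterocytes, on 3 oligonucleotide arrays. The control array held cells with shCTRL, a non-target short hairpin RNA. The other arrays held cells with shOCC-1-1 (line 1) and with shOCC-1-2 (line 2), independent hairpins against the transcript OCC-1 (gene symbol C12orf75). All 3 cultures had received lentivirus, 5 days of puromycin at 1 µg/ml and then 24 h without it, in medium with 20% serum. The sources used here do not say whether a line was a pool or a clone. Each hairpin is thus seen on 1 array, both are set against the same control array, and so few arrays limit how precise any value can be. In whole cultures, fewer cells that express a gene and less RNA per cell cannot be told apart.

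Human cells cannot make thiamine, folate, biotin, pantothenate, riboflavin or vitamin C, so these molecules enter through carriers in the membrane. The SLC19 family are facilitative carriers: SLC19A2 (THTR1) and SLC19A3 (THTR2) move thiamine, and their relative SLC19A1 (the reduced folate carrier) moves folates. SLC46A1 is the proton-coupled folate transporter of the upper intestine, SLC5A6 (SMVT) is a sodium-dependent carrier of biotin and pantothenate, the SLC52 proteins carry riboflavin, and SLC23A1 and SLC23A2 (SVCT1 and SVCT2) are sodium-dependent carriers of vitamin C. In the gut epithelium some of these act at the luminal side and others at the basal side, and inherited loss of SLC19A2 causes thiamine-responsive megaloblastic anaemia.

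The upstream sequence of both thiamine transporter genes is shown because these close relatives stood on opposite sides of the control. Each line below gives the 250 bases before the first listed RefSeq start on the minus strand of GRCh38.p14, read 5′ to 3′. That is chr1:169485971-169486220 for SLC19A2 and chr2:227718029-227718278 for SLC19A3. Capitals mark matches on either strand to the GC box GGGCGG or to the CCAAT box, spelled CCAAT.
SLC19A2: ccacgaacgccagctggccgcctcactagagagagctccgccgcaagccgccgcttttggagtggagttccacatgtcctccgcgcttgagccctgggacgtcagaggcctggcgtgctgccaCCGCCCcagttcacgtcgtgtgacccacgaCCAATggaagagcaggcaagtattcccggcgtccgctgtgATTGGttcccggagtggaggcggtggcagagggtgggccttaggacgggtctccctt
SLC19A3: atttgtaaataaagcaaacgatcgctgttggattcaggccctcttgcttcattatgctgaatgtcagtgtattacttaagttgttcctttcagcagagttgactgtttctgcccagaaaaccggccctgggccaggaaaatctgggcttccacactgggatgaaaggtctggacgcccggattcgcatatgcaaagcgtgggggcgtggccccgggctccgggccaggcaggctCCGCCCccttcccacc
The SLC19A2 stretch held 1 GC box, which began 127 bases before the start, and 2 CCAAT boxes, which began 97 and 57 bases before it. The SLC19A3 stretch held 1 GC box, which began 16 bases before the start, and no CCAAT box. TATAAA and the E-box CACGTG were searched on both strands in the same way and matched neither stretch. Among 35116 starts in the table, 42.6% held the GC box, 32.0% the CCAAT box, 10.7% TATAAA and 6.34% CACGTG. The stretch of SLC19A2 was 65.2% G or C and that of SLC19A3 54.8%, against a median of 58.0% over all starts. A match is a run of letters and was not tested as a binding site.

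The arrays were alike in their medians but not in every respect. Over genes above the intensity filter, log2 differences from the control had an SD of 0.22 in each line, against 0.11 between the lines. The background controls described below also differed. Median intensities of the 49395 probe sets lay between 182.5 and 185.5. The targeted transcript OCC-1, read by 1 probe set, was at 1219 in control cells, 518 in line 1 and 397 in line 2, so both lines carrying its hairpins were below the control. Of 12 markers of intestinal epithelium 11 passed the intensity filter, while FABP2, an enterocyte fatty acid binding protein, did not. The 12 together summed to 35846, 39378 and 39806 in control, line 1 and line 2. The 11 that passed had median log2 differences of only 0.03 in line 1 and 0.04 in line 2. The larger sums in the lines are therefore not a rise shared by these markers. Of the markers of other cell types, 3 of 6 fibroblast, 2 of 5 leukocyte and 1 of 4 endothelial genes with a probe set passed. Summed over passing and not passing genes alike, intensities in control, line 1 and line 2 were 1096, 1113 and 1089 for fibroblasts, 1005, 1358 and 1161 for leukocytes, and 663, 608 and 658 for endothelium. PTPRC, which defines leukocytes, read 75.6 to 80.1, and CDH5 of endothelium 99.9 to 116.5, both below the filter. LYZ, a lysozyme gene of leukocytes that some epithelia also express, was the marker called higher, at 381 in control cells, 740 in line 1 and 606 in line 2. No marker read 0, and the part of these markers in the results was not tested.

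For each gene the brightest probe set stands for the gene, and a gene passes the filter when the mean of that probe set reaches the median of all probe sets (intensity 184). All 8 measured transporters passed. By the size rule, which asks for at least 1.5-fold from control in the same direction in both lines, 1 of the 8 was higher (SLC19A2), 0 were lower and 7 were neither. Over all 11329 genes above the filter 1.36% were higher and 0.159% lower by that rule. As SLC19A2 was the reason for the list, nothing is read from its share. Without regard to size, 4 of the 8 were lower in both lines (SLC19A1, SLC19A3, SLC5A6 and SLC52A2), 1 was higher in both, and 3 lay above the control in one line and below it in the other. Among all genes 45.7% were lower in both lines, 36.5% higher in both and 17.7% on opposite sides. The median log2 difference of the 8 genes was -0.19 in line 1 and -0.25 in line 2, against -0.03 and -0.02 over all genes.

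**Figure D1:**
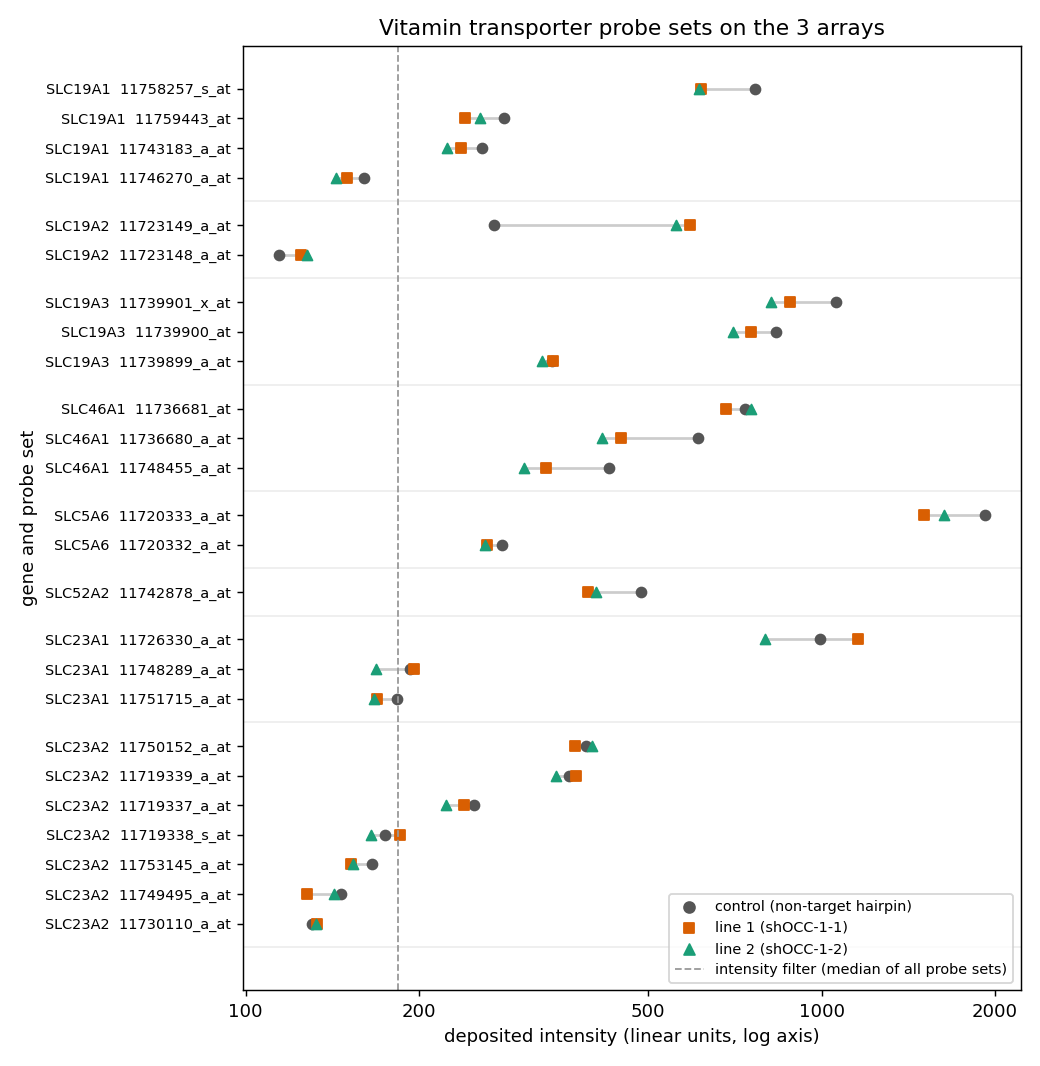
Deposited intensity (linear units on a log axis) of each transporter probe set with values of its own, 1 row per probe set, in the control (circle), line 1 (square) and line 2 (triangle), with the filter as a dashed line. The bright SLC19A2 probe set goes from 269 to 591 and 558, whereas most other rows have the control at their right end or the 3 points close together.

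SLC19A2, a high-affinity thiamine carrier, was about doubled in both lines. Its brightest probe set read 269 in control cells, 591 in line 1 and 558 in line 2. Both knockdown values lay far above the control and close to each other. They were 2.19-fold and 2.07-fold the control, a log2 difference of 1.09 ± 0.06 (SD, n = 2 lines), which ranked 6 among 11329 genes. The gap between lines 1 and 2 was 1.06-fold, much smaller than the gap of either from the control. Both folds use the same control reading, which the closeness of the lines does not check. The evidence rests on 1 set of readings, because a second SLC19A2 probe set holds identical values on all 3 arrays. The third was dim and below the filter, at 114 in control cells, 124 in line 1 and 128 in line 2. It was higher in both lines as well, but by 1.09-fold and 1.12-fold only. The mean over the probe sets with values of their own was 0.62, and SLC19A2 still met the size rule.

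The 5 genes whose pair of log2 differences lay nearest to that of SLC19A2 were HHEX, PTPRF, ABHD3, ATP5MC1 and ITIH2, at distances of 0.08 to 0.12 on the log2 scale over the 2 lines. HHEX, a homeobox factor, was 2.31-fold the control in line 1 and 2.11-fold in line 2. The receptor phosphatase PTPRF had log2 differences of 1.12 and 1.13, and the lipid hydrolase ABHD3 of 1.07 and 1.12. None of the 5 is a vitamin transporter. For HHEX, ATP5MC1 and ITIH2 no further probe set with its own values passed the filter, as for SLC19A2. The 3 further PTPRF probe sets had median log2 differences of 0.32 and 0.30, and the further ABHD3 set was at 0.62 and 0.58.

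SLC19A3, the other thiamine carrier, stood on the opposite side. Its brightest probe set read 1060 in control cells, 880 in line 1 and 816 in line 2. Both lines lay below the control, by a log2 difference of -0.32 ± 0.08 (SD, n = 2 lines), and its mean ranked 308 from the lowest of 11329 genes. The second probe set was lower by less, with 832 in control cells, 755 in line 1 and 702 in line 2. On the third the arrays were nearly equal, at 341 in both the control and line 1 and 327 in line 2. The size of the SLC19A3 difference thus depended on the probe set, and the brightest one has the suffix _x_at, which the manufacturer gives to sets with probes that may also match other transcripts.

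**Figure D2:**
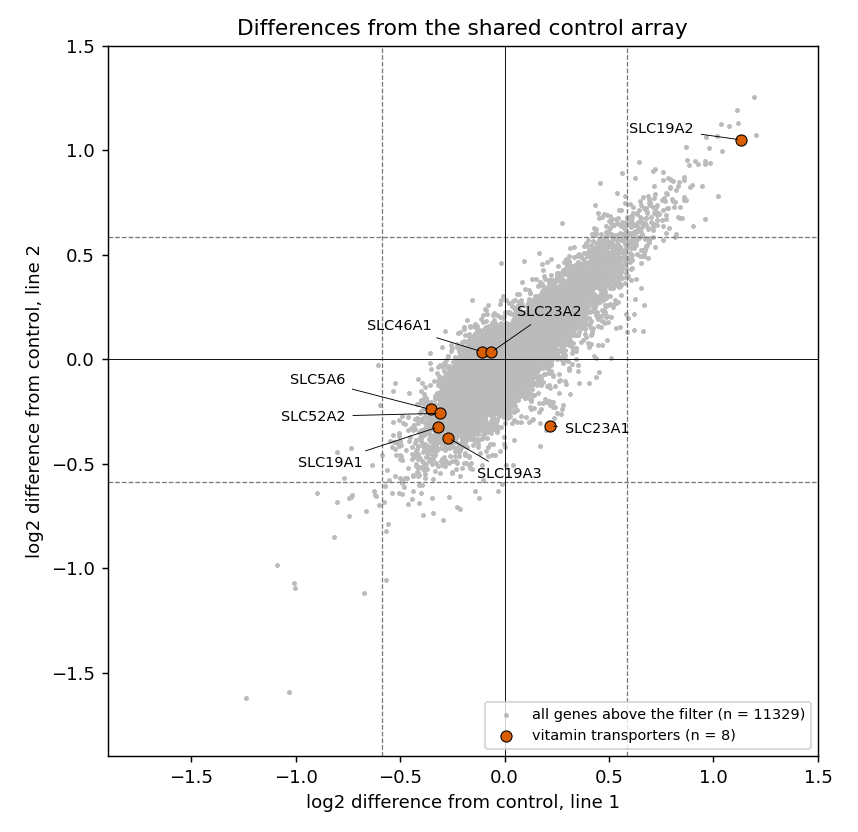
Log2 difference from control in line 1 (horizontal) and line 2 (vertical), for all 11329 genes above the filter (grey) and the 8 measured transporters (orange), with dashed lines at 1.5-fold. SLC19A2 lies at 1.13 and 1.05, 4 transporters lie together below 0 in both lines, and SLC23A1 lies off the diagonal at 0.22 and -0.32. Both axes share the control array, which by itself spreads genes along the diagonal.

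Among the folate carriers, SLC19A1 was lower in both lines on every probe set. Its brightest set read 768 in control cells, 616 in line 1 and 613 in line 2, which is a log2 difference of -0.32 ± 0.005 (SD, n = 2 lines). Both lines lay below the control and nearly coincided, with line 1 at 1.005 times line 2. The other 3 sets had mean log2 differences of -0.18, -0.16 and -0.13, the last of them below the filter. SLC19A1 is the folate carrier found in most tissues.

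SLC46A1, the carrier that takes up folate at acid pH, gave a split picture. Its brightest probe set read 735 in control cells, 683 in line 1 and 754 in line 2, so the lines lay on either side of the control. Both other sets were clearly below it. One read 609, 448 and 415 in control, line 1 and line 2, a log2 difference of -0.50 ± 0.08 (SD, n = 2 lines). Another read 427, 332 and 305, a difference of -0.42 ± 0.09 (SD, n = 2 lines). The first of these, 1.36-fold and 1.47-fold lower, was the farthest below control of all transporter probe sets, although the gene as represented by its brightest set was at -0.04 ± 0.10. With the mean of all 3 sets SLC46A1 was at -0.32.

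The biotin and pantothenate carrier SLC5A6 read 1923 in control cells, 1504 in line 1 and 1628 in line 2. Both lines lay below the control, at -0.30 ± 0.08 (log2, SD, n = 2 lines). Its second set was also lower in both lines, by a mean of -0.10, with 279, 263 and 260 in control, line 1 and line 2. The riboflavin carrier SLC52A2, read by 1 probe set, had 486 in control cells, 392 in line 1 and 406 in line 2. Here too both lines were below the control, at -0.28 ± 0.04 (log2, SD, n = 2 lines). SLC52A3, the riboflavin carrier prominent in the intestine, is no member of the list and was looked up as a relative of SLC52A2. Its brightest probe set read 378 in control cells, 342 in line 1 and 421 in line 2, on either side of the control. Both other sets were lower in both lines, at -0.25 and -0.003 for one and at -0.22 and -0.18 for the dimmer one.

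The vitamin C carrier SLC23A1 separated the OCC-1 hairpins from each other. Its brightest probe set read 995 in control cells, 1157 in line 1 and 797 in line 2. Line 1 lay above and line 2 below the control, and line 1 was 1.45-fold line 2. By the size of this gap SLC23A1 ranked 9 among 11329 genes. A dimmer set showed the same order, at 193 in control cells, 196 in line 1 and 168 in line 2, with line 1 at 1.16 times line 2. On the third, below the filter, both lines were lower than the control and nearly equal, at 183, 169 and 167 in control, line 1 and line 2. With 1 array per hairpin, a difference between hairpins and one between arrays cannot be told apart.

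SLC23A2, the vitamin C carrier of most other tissues, was near the control throughout. Its brightest set read 389 in control cells, 373 in line 1 and 399 in line 2, a log2 difference of -0.01 ± 0.07 (SD, n = 2 lines), which was 0.01 after cyclic loess. The mean differences of the other 6 sets lay between -0.12 and 0.03, and 4 of these 6 were below the filter. Of the transporters it had the smallest mean difference.

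Of the 26 probe sets 25 had values of their own, and 18 of these passed the filter. Lower in both lines were 15, against 48.1% of all 44935 such probe sets on the array, 3 were higher in both, against 30.5%, and 7 lay on opposite sides. Of the 3 higher sets 2 belong to SLC19A2 and the third is the dimmest but one of the transporter sets, a SLC23A2 set at 130 to 133. Outside SLC19A2, the mean log2 differences of the 23 sets ran from -0.50 to 0.03. Sets of 1 gene share the same transcripts and are not independent.

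In line 1 the lower transporters differed from the control by about as much as some of the array's own controls, and in line 2 by more. The 23 background control probe sets differ in how many G or C bases each probe holds. On the control array their intensities ran from 51.3 to 2307, a range that also holds the SLC19A2 reading of 269. Passing the filter at 184 is therefore no proof that a transcript was detected. The log2 differences of the background controls were 0.04 in line 1 and 0.02 in line 2 at 3 such bases. They reached as low as -0.37 in line 1 and -0.23 in line 2 with many. SLC19A1, SLC19A3, SLC5A6 and SLC52A2 lay between -0.27 and -0.35 in line 1, where 1 control set, that with 25 such bases, lay lower than all 4 and the next control was at -0.27. In line 2 they lay between -0.24 and -0.38, below every control set. The log2 differences of SLC19A2 lay far above those of all control sets. The base composition of the transporter probes is not used here, so the part of this shift in the lower values was not tested.

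**Figure D3:**
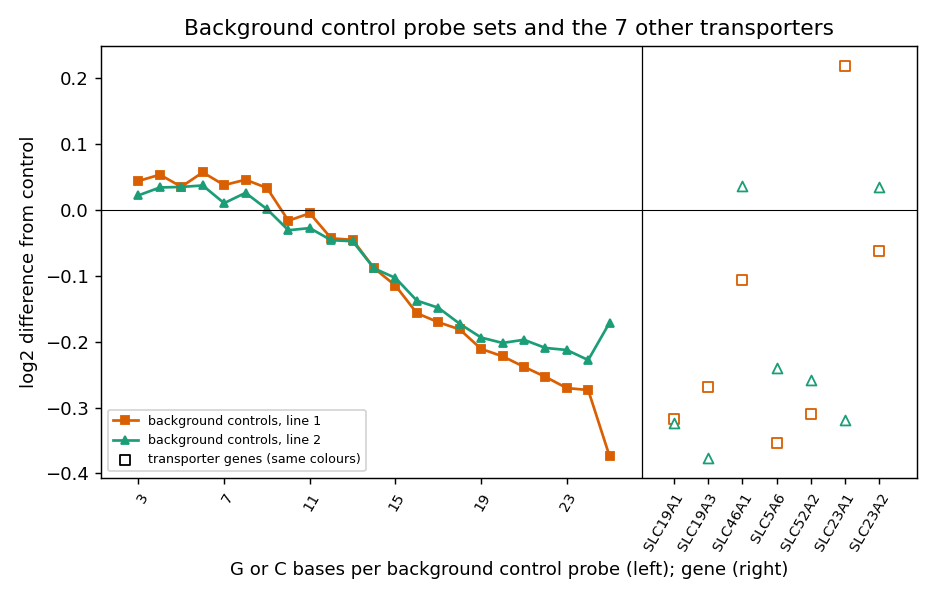
Left, log2 difference from control of the 23 background control probe sets against how many G or C bases a probe holds, in line 1 (orange squares) and line 2 (green triangles). Right, the same quantity for the 7 measured transporters other than SLC19A2 (open symbols). The controls go from about 0 down to -0.37 in line 1 and -0.23 in line 2, and the 4 transporters that were lower in both lines lie between -0.24 and -0.38.

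Other genes that take up or use vitamins were examined next, together with transcription factors tied to promoters of the transporters. They form 9 lists that leave out the 9 transporters. Of their 102 genes above the filter, each counted once, 0 were called lower and 1 higher by the size rule, which is near the shares of all genes given above. The counts by direction below can be read against the 45.7% of all genes that were lower and the 36.5% that were higher in both lines. Of the thiamine list 13 genes passed the filter, 9 of them lower in both lines and 3 higher, with a median of -0.10 (mean of both lines) against -0.02 over all genes. BCKDHB, a subunit of the branched-chain keto acid dehydrogenase, was at 1046 in control cells, 934 in line 1 and 837 in line 2. PDHB, a subunit of pyruvate dehydrogenase, was at 2798, 2467 and 2446 on the same arrays. Both are thiamine-dependent complexes, and both genes were lower in both lines by 1.25-fold or less. Subunits of pyruvate dehydrogenase were split. PDHA1 was lower, at -0.11 in line 1 and -0.09 in line 2, but the 3 higher genes of this list belong to the same complex. These were PDHX at 0.24 and 0.15, DLAT at 0.13 and 0.23, and DLD at 0.13 and 0.17, named after their values were seen. Further probe sets had larger medians for DLAT (5 sets, 0.35 and 0.36) and DLD (6 sets, 0.31 and 0.29). The 1 further PDHX set was smaller, at 0.13 and 0.05. The 3 further BCKDHB probe sets had medians of -0.06 in line 1 and 0.07 in line 2 and so shared no direction.

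The 18 folate genes above the filter were split, with 9 higher in both lines, 7 lower and a median of 0.02. MTHFD1L, a mitochondrial enzyme of one-carbon metabolism, read 698 in control cells, 863 in line 1 and 954 in line 2. TYMS, thymidylate synthase, read 3740, 4560 and 4489. Both genes were higher in both lines, short of 1.5-fold, and the 3 further probe sets of MTHFD1L had smaller medians of 0.08 and 0.14.

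Of 17 genes of biotin and pantothenate use, 6 were higher in both lines and 6 lower, with a median of -0.03. The largest shared differences were those of PANK1 and PANK3, kinases that start the synthesis of coenzyme A from pantothenate. PANK1 read 414 in control cells, 569 in line 1 and 549 in line 2, and PANK3 read 356, 468 and 449. Both were thus 1.26-fold to 1.37-fold the control, but the 2 further PANK3 probe sets had smaller median log2 differences of 0.12 and 0.16. The related kinase PANK4, named after its values were seen, was lower in both lines, at -0.13 and -0.20.

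In the riboflavin list, which had 8 genes above the filter, 3 were higher in both lines and 3 lower, with a median of 0.02. RFK, the kinase that turns riboflavin into flavin mononucleotide, read 294 in control cells, 416 in line 1 and 434 in line 2, which is 1.42-fold and 1.48-fold. ETFB, a subunit of the electron-transferring flavoprotein, read 2814, 2477 and 1998. It was lower in both lines, with line 2 farther from the control than line 1.

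Vitamin C handling held the gene that passed the size rule. P4HA1, a subunit of the collagen prolyl 4-hydroxylase that needs vitamin C as a cofactor, read 931 in control cells, 1688 in line 1 and 1578 in line 2. It was 1.81-fold and 1.69-fold higher, and no further probe set of it passed the filter. PLOD3, a lysyl hydroxylase with the same cofactor, went the other way with 1301, 1014 and 965 on the same arrays. Its further probe set was nearer the control, at log2 differences of -0.11 and -0.14. The 14 genes of this list were evenly divided, 7 higher and 7 lower in both lines, with a median of -0.03.

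**Figure D4:**
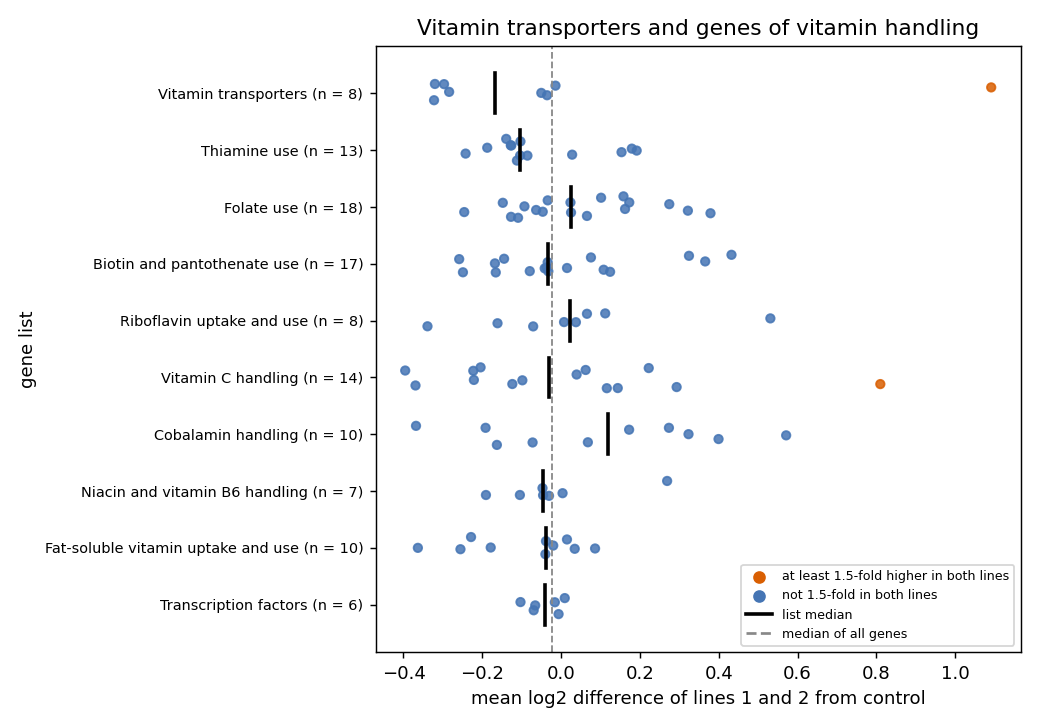
Mean log2 difference of lines 1 and 2 from control for each gene above the filter, for the transporters and 9 lists of vitamin handling genes or transcription factors. List medians are black bars and the median of all genes (-0.02) is dashed. Orange points, SLC19A2 and P4HA1, are at least 1.5-fold higher in both lines, and the transporters have a median of -0.17.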

How the data were processed

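Total RNA of 1 control and 2 OCC-1 knockdown cultures of Caco-2 was measured on 1 array each, with groups taken from titles and the genotype label. The authors' deposited values are linear intensities, 1 for each probe set on an array, from 50.1 to 19619. RMA is named, without version or settings, per the submitters' processing notes, and background and scaling steps are not given in the sources used here. Background left in the values would shrink the folds measured here if it were equal on all arrays. The background controls differed between the arrays, and unequal background could also enlarge a fold, which was not tested.

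Intensities were converted to log2 and not normalized further. The platform annotation named 44988 probe sets with 1 symbol, of which 44961 were found by identifier in RefSeq (GRCh38.p14) and 0 changed. Left unnamed were 1832 with several symbols and 2473 with none, beside 102 array controls. The size rule was tried on simulated data, with independent noise on each array drawn from the differences between lines 1 and 2. Those differences had an SD of 0.11 over genes above the filter, against 0.22 for the differences of each line from the control. The simulation therefore does not cover an error of the shared control array. No test was made, and an SD with n = 2 gives only the spread between the lines, which may be technical.

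Named were all transporters, OCC-1, from each list the genes called and the 2 with the largest shared difference, and the 5 genes nearest to SLC19A2. Cell markers, SLC52A3, PANK4, PDHA1, PDHX, DLAT and DLD stand outside this rule. The transporters, lists and rules were chosen with earlier results of these data known. Promoters came from RefSeq for 6 of the 9 genes. Alternatives were other fold thresholds, filters and probe set averages, quantile, cyclic loess and normexp (offset 50) steps with limma 3.58.1 in R 4.3.3, and leaving out each knockdown array. Python 3.11.15 with numpy 2.4.6, pandas 2.3.3 and matplotlib 3.10.9 did the rest.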

Additional observations from a re-analysis of the deposited data

Results flagged for a closer look

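Lines 1 and 2 lay on opposite sides of the control for 3 transporters, each read by its brightest probe set, and these differences were not tested because each line has 1 array. SLC23A1 was higher than control in line 1 and lower in line 2, with a log2 difference of 0.54 between the lines. SLC46A1 was lower in line 1 and higher in line 2, with a difference of -0.14 (line 1 minus line 2). SLC23A2 had the same order at -0.10. The SD of the difference between the lines over all genes was 0.11.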

How the results depend on the processing

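SLC19A2 met the size rule, and no other transporter did, under every alternative, including thresholds of 1.3-fold and 2-fold. The alternatives were applied singly, so at 2-fold SLC19A2 was judged by its brightest probe set and not by an average. Its log2 difference was 0.78 with the mean of all its probe sets and 0.62 with identical sets counted once, an alternative chosen after seeing the data, because the dim set then counts. It was 1.05 to 1.13 when a knockdown array was left out, and 1.09 to 1.13 after quantile, cyclic loess or normexp steps. Counts over all genes were 44 higher and 9 lower with either average of probe sets, 602 and 106 at 1.3-fold, and 8 and 4 at 2-fold. Without one knockdown array they were 212 to 219 higher and 24 to 46 lower, the larger number of lower genes being that of line 2 alone, and the transporters' median was -0.25 to -0.19. Of 63 values of the other 7 transporters under alternatives 59 were below 0, and the exceptions belong to SLC23A1, SLC23A2 and SLC46A1. Many of the 63 repeat each other. The other filters left the values of these genes unchanged, and both averages of probe sets gave the same values for them. Every alternative draws on the same arrays, so this count is no measure of how firm the direction is. SLC46A1 was at -0.32 with either average of probe sets. No paired analysis was possible because the control has 1 array. Dim probe sets near the background controls limit what a small difference can show.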

Other observations

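Genes that handle other vitamins were measured too. Of the cobalamin list 10 genes passed the filter, 6 higher and 4 lower in both lines, with 0 called by size and a median of 0.12. MMUT, the cobalamin-dependent methylmalonyl-CoA mutase, read 323 in control cells, 506 in line 1 and 454 in line 2, which is 1.57-fold and 1.41-fold. Its 2 further probe sets had medians of 0.03 and -0.16, so these had no common direction. MMADHC, a protein of intracellular cobalamin trafficking, read 2335, 3136 and 3024 and was higher in both lines, by 0.43 and 0.37 on the log2 scale.

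Of 7 genes of niacin and vitamin B6 handling above the filter, 5 were lower in both lines and 1 higher, where among all genes 45.7% were lower and 36.5% higher. NAMPT, which recycles nicotinamide, was 1.24-fold and 1.17-fold the control, but its further probe set was nearer the control, at log2 differences of 0.09 and 0.003. QPRT, of NAD synthesis from tryptophan, read 3986, 3442 and 3542 in control, line 1 and line 2. Of 10 genes for fat-soluble vitamins 6 were lower and 2 higher in both lines. RBP2, the retinol-binding protein of enterocytes, read 2980, 2483 and 2160, and BCO1, which cleaves beta-carotene, read 251, 222 and 221. Of 6 transcription factors tied to promoters of these transporters, 4 were lower in both lines and 0 higher, all by little. USF1 was at 222, 210 and 202 and KLF4 at 211, 200 and 201, though the further KLF4 probe set was higher in both lines by 0.21.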
